A study of Mus musculus with 6 samples.

Results

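Oxidative phosphorylation genes were followed in a comparison of cells exposed to AA147 with cells given vehicle. The group was chosen by gene symbol: the subunit families Nduf, Sdha to Sdhd, Uqcr, Cox4 to Cox8 and Atp5, the cytochromes Cyc1 and Cycs, and the 13 genes for proteins on mitochondrial DNA. It held 104 of the 16472 genes listed, 91 of them nuclear. The cells were HT22, an immortalised mouse hippocampal line used as a model of neurons, and AA147 is a small molecule known to activate ATF6, a sensor of the unfolded protein response, and the oxidative stress regulator NRF2. Cultures received AA147 at 10 mM, as the labels give the dose, or DMSO as vehicle, for 16 h, with 3 libraries per group. The labels do not say that the libraries came from separate experiments, so the p-values measure the spread between these libraries, which may be technical.

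The respiratory chain sits in the inner mitochondrial membrane. Complexes I (NADH dehydrogenase) and II (succinate dehydrogenase) pass electrons to ubiquinone, complex III passes them to cytochrome c, and complex IV reduces oxygen. Complexes I, III and IV pump protons, and complex V, the ATP synthase, uses the gradient to make ATP. Most subunits are encoded in the nucleus and imported, while a small hydrophobic core is encoded in mitochondrial DNA, so complexes I, III, IV and V are built from both genomes. Complex II is nuclear only. Core subunits carry the catalytic or proton-moving parts, and accessory subunits stabilise the assembly.

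All values come from the authors' deposited table, which has 1 line per gene: the normalized count averaged over 6 libraries, a log2 fold change with its standard error (SE), and an adjusted p. Single libraries have no values in it, so none is shown and their depth is unknown. The table does not name the numerator of the fold change. Positive values are read as higher with AA147 because NRF2 targets lie there: in the authors' deposited table Nqo1 had a log2 fold change of 0.93 (SE 0.067) and Gsta1 one of 4.69 (SE 0.14). Hspa5, a target of ATF6, was at -0.80 (SE 0.061) as listed by the authors' deposited table, and the stress gene Ddit3 at 0.07 (SE 0.12), so not every marker points the same way. Each direction below is conditional on that reading and would reverse with the other.

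The labelled cell type was compared with its markers. Of 14 neuronal markers 4 had a value in the authors' deposited table, with means of 1199 for Tubb3, 562 for Syn1, 6.24 for Stmn2 and 3.93 for Slc17a7, and the other 10 were not analysed here. Tubb3 was higher at 0.43 (SE 0.092). All 4 fibroblast markers had one, with Col1a1 at 139176, and all 4 were lower at an adjusted p under 0.05 with a median log2 fold change of -1.04 in the authors' deposited table. Of 4 astrocyte, 4 oligodendrocyte, 4 microglial and 3 endothelial markers, 2, 2, 1 and 2 had a value, with the highest mean, 927, for Slc1a3, which was called at -1.30 (SE 0.089). Csf1r of the microglial list was called at 0.95 (SE 0.34) with a mean of 48.0, and no oligodendrocyte or endothelial marker was called. The fibroblast markers moved with the treatment, and their part in the results below was not tested.

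Across the group, 34 of the 79 nuclear structural subunits and 3 of the 13 mitochondrial genes were modestly lower with AA147, and 1 gene, Cox6a2, was 6.43-fold higher. The authors' deposited table gives 90 of the 104 members a negative fold change, and the number was 87 after a trend on transcript length, GC content and mean was subtracted. At an adjusted p under 0.05, the threshold for a call, 37 members were called negative and 1 positive among the 101 that had an adjusted p. Over all genes 20.2% were called, 11.1% negative and 9.05% positive, beside 36.6% of the members called negative. Where the mean was 1000 or more, 15.6% of all genes and 46.7% of the 75 members were called negative. The changes were small: the median log2 fold change of the members was -0.18 beside 0.01 for all genes, and the lowest called value was -0.49, for Ndufb11. In bulk RNA, fewer cells of a type and less of a transcript per cell cannot be told apart.

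**Figure D1:**
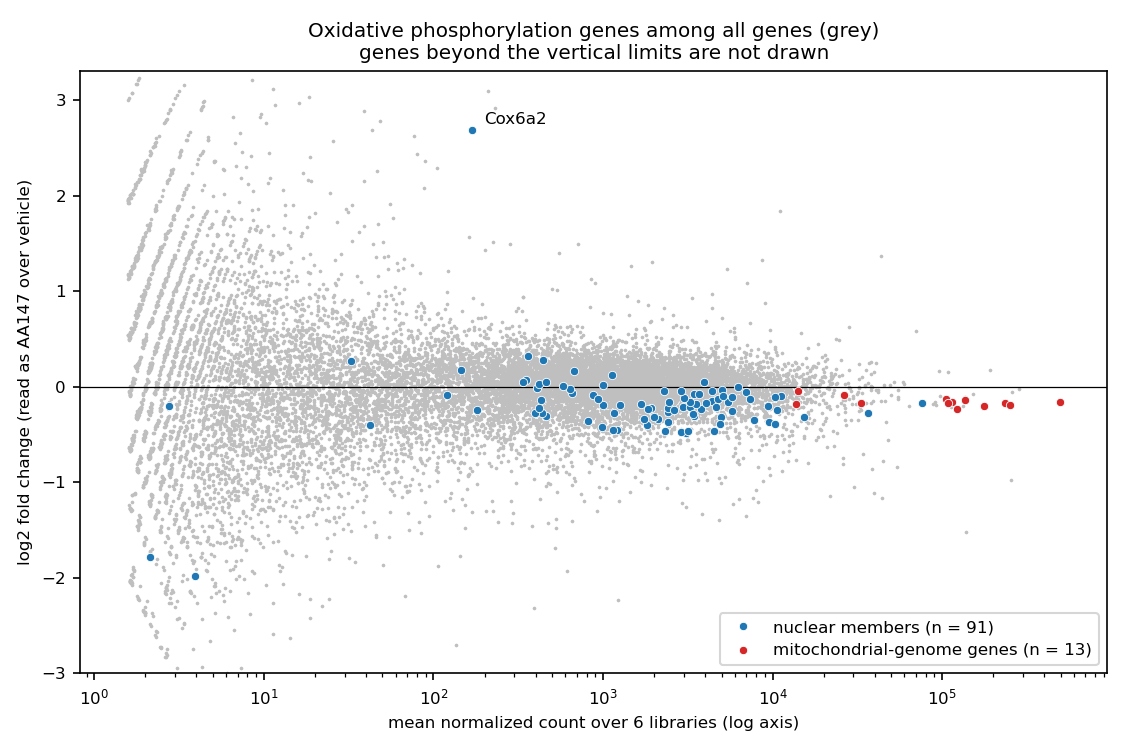
Log2 fold change against the mean normalized count (log axis) as listed by the authors' deposited table, for 91 nuclear members (blue), 13 mitochondrial-genome genes (red) and all genes (grey, within the vertical limits). The abundant members lie just below 0, the mitochondrial genes toward the right, and Cox6a2 stands alone at 2.68.

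Promoters of subunits that were called are shown because nuclear genes of all 5 complexes were among the calls. RefSeq promoter sequences (GRCm38.p6, 250 bases before to 50 after the annotated start) were matched by symbol for 63 of the 79 nuclear structural subunits. Those printed are the called subunit with the lowest fold change in each complex that had an entry, and Cox6a1, the ubiquitous partner of Cox6a2. For Cox6a2, Sdhc and Cox6c no promoter is shown. Each runs 5′ to 3′ on the minus strand, and capitals mark 2 motifs found on either strand, GCGCA and GCGC separated by 1 base of any kind for NRF1, a regulator of mitochondrial genes distinct from NRF2, and CCGGAAG for ETS factors, which include GABPA.
Ndufb11 (complex I), chrX:20617570-20617869: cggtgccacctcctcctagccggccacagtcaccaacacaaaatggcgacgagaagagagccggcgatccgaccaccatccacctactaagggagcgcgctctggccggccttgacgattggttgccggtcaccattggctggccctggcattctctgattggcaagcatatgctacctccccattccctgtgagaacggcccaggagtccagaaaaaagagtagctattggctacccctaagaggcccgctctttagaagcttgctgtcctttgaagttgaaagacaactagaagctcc
Sdhd (complex II), chr9:50603800-50604099: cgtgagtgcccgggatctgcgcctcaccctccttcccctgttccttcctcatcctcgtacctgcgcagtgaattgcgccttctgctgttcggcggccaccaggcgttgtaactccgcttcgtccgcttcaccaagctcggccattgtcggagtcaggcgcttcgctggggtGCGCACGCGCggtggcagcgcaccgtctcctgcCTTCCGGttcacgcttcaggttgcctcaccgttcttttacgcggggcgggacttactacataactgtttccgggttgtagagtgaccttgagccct
Uqcr11 (complex III), chr10:80406772-80407071: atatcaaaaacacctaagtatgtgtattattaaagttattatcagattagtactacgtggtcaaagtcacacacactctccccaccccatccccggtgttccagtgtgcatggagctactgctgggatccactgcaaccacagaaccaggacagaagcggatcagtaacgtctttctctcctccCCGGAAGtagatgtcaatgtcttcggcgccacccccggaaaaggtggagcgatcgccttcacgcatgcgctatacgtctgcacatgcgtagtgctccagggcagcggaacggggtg
Cox8a (complex IV), chr19:7217567-7217866: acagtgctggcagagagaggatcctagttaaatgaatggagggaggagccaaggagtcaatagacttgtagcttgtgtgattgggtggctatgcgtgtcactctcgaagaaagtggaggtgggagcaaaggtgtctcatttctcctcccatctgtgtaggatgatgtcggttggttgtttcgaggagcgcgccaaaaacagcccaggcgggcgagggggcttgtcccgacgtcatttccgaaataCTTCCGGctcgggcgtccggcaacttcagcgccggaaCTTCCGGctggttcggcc
Atp5g1 (complex V), chr11:96075582-96075881: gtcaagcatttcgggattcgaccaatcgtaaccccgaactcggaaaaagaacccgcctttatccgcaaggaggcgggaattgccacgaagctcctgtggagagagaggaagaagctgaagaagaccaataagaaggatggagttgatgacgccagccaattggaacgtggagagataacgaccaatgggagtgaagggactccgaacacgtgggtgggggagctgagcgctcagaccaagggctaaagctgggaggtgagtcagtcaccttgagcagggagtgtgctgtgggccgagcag
Cox6a1 (complex IV), chr5:115348909-115349208: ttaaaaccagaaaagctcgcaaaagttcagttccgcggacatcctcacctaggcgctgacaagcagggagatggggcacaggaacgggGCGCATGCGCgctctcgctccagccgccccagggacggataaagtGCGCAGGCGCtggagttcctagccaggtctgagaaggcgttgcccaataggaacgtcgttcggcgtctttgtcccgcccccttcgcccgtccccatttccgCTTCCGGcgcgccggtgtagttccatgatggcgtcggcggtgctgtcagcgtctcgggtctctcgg

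The NRF1 motif was in a promoter of 17 of the 63 subunits (27%), against 5.19% of the 27025 genes with an entry. The ETS motif was in 16 (25.4%), against 9.93%. AAGATGGCG, bound by YY1, was in 7 (11.1%), against 1.64%, and TGACNNNGC, the core of the antioxidant response element bound by NRF2, was in 9 (14.3%), against 14%. Among the matched subunits the ETS motif was held by 11 of the 29 called negative and by 5 of the 33 not called, while the NRF1 motif was held by 6 and 11. For the YY1 motif the numbers were 2 and 5, and for the antioxidant response element 2 and 7. Differences between called and other subunits were not tested, and the same split was not made over all genes. Of the printed promoters, Cox6a1 had 2 NRF1 motifs and 1 ETS motif, Cox8a had 2 ETS motifs, Sdhd had 1 of each, Uqcr11 had 1 ETS motif, and Ndufb11 and Atp5g1 had none of these letters in the window. These matches describe sequence only. The 27025 genes are more than the 16472 listed here, and they were not matched to the subunits for expression or GC content.

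Of the 15 nuclear subunits of complex V, 11 were called as deposited and 6 after the trend on length, GC content and mean was subtracted. Beside these, 11.1% of all genes were called negative as deposited, and 15.6% of genes with a mean of at least 1000. After the trend 13.1% of the genes in that fit were called negative. All 15 were negative as the authors' deposited table lists them, with a median of -0.28 on the log2 scale. In the F1 head, where ATP is made, the most abundant nuclear member Atp5b (beta subunit, mean 76102) fell by 0.17 on the log2 scale (SE 0.054, adjusted p 0.0109) as listed by the authors' deposited table. Its partner in the head, Atp5a1 (alpha subunit, mean 36600), fell by 0.28 (SE 0.051, adjusted p 1.31e-06). In the central stalk, Atp5d (delta) was at -0.39 (SE 0.070, adjusted p 5.41e-07), Atp5e (epsilon) at -0.28 and Atp5c1 (gamma) at -0.20 in the authors' deposited table, and all were called. After the trend was subtracted, Atp5d, Atp5c1 and Atp5a1 were called, while Atp5e (adjusted p 0.188) and Atp5b (log2 fold change -0.03, adjusted p 0.72) were not.

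The ring of c subunits, which turns as protons pass, is made from 3 genes for the same mature protein. Atp5g3 had the highest level, at 10703 normalized counts per kb of transcript against 1610 for Atp5g1 and 546 for Atp5g2, from the means in the authors' deposited table. Atp5g1 had the lowest fold change of the complex, -0.42 (SE 0.094, adjusted p 0.000134), and Atp5g3 was at -0.24 (SE 0.063, adjusted p 0.00133). Atp5g2 was not called at -0.28, with a 95% interval, computed from the SE, from -0.57 to 0.02. Of the outer stalk and membrane subunits in the authors' deposited table, Atp5j2 at -0.39, Atp5k at -0.34, Atp5o at -0.29 and Atp5j at -0.24 were called, while Atp5h at -0.23, Atp5f1 at -0.10 and Atp5l at -0.08 were not. Atp5g3, Atp5k and Atp5o were not called after the trend was subtracted, with adjusted p from 0.0511 to 0.0736. The values of Atp5h, with 8 near-identical coding copies elsewhere in the genome, and of Atp5l, with a mean of only 120, are less certain.

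Complex IV held 7 negative nuclear calls and the single positive call. The negative calls were 58.3% of its nuclear subunits with an adjusted p, beside 11.1% of all genes and 15.6% of genes with a mean of at least 1000. Its 11 ubiquitous nuclear subunits, counting Ndufa4, which is now placed here despite its name, were all negative as the authors' deposited table lists them, although Cox5b turned positive after the trend was subtracted, and 7 were called. Cox8a, a small membrane subunit, was lowest at -0.46 (SE 0.071, adjusted p 2.68e-09), a decrease of mean abundance to 0.725-fold. Cox6c followed at -0.46 (SE 0.084, adjusted p 1.08e-06) and Cox7b at -0.46 (SE 0.074, adjusted p 2.24e-08) as listed by the authors' deposited table. Cox6a1 at -0.37, Ndufa4 at -0.34, Cox4i1 at -0.32 and Cox6b1 at -0.31 completed the calls in the authors' deposited table. Cox7a2 at -0.16, Cox7c at -0.13, Cox5a at -0.10 and Cox5b at -0.03 were not called. The called subunits ranged from 0.725 to 0.805 of the vehicle level, and the 4 others from 0.898 to 0.98.

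Cox6a2, the isoform of subunit VIa known from heart and skeletal muscle, was the exception. Its mean was 168 and its log2 fold change 2.68 (SE 0.22, adjusted p 9.35e-33) as listed by the authors' deposited table, a 6.43-fold higher level. Taken at face value, the mean and the fold change imply 45.2 normalized counts with vehicle and 291 with AA147. Among called positive genes with a mean of at least 100 it had rank 13 of 1134 by fold change. It remained a minor form: per kb of transcript it implied 0.352% of the level of Cox6a1 with vehicle and 2.93% with AA147. The summed implied counts of Cox6a1 and Cox6a2 were 10819 with vehicle and 8615 with AA147, so the pair was lower together. In RefSeq the 3′ end of Cox6a2 overlaps that of Itgad, which was not analysed here, and the libraries were not stranded, so reads from the overlap cannot be told apart. The neighbouring genes Armc5 and 9130023H24Rik were at -0.27 (SE 0.073) and 0.03 (SE 0.25) as listed by the authors' deposited table.

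The other tissue-restricted isoforms did not share that level. Cox4i2, known from lung and from low oxygen, had a mean of 3.93 in the authors' deposited table, Cox7b2 one of 2.77 and Ndufa4l2, a target of hypoxia factors, one of 2.14. These 3 had no adjusted p and stayed without a call, and the SE of each was at least 1.25. Their partners Cox4i1 (mean 15280), Cox7b (3157) and Ndufa4 (7805) were the more abundant forms. Cox6b2, Cox7a1 and Cox8b were not analysed here.

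**Figure D2:**
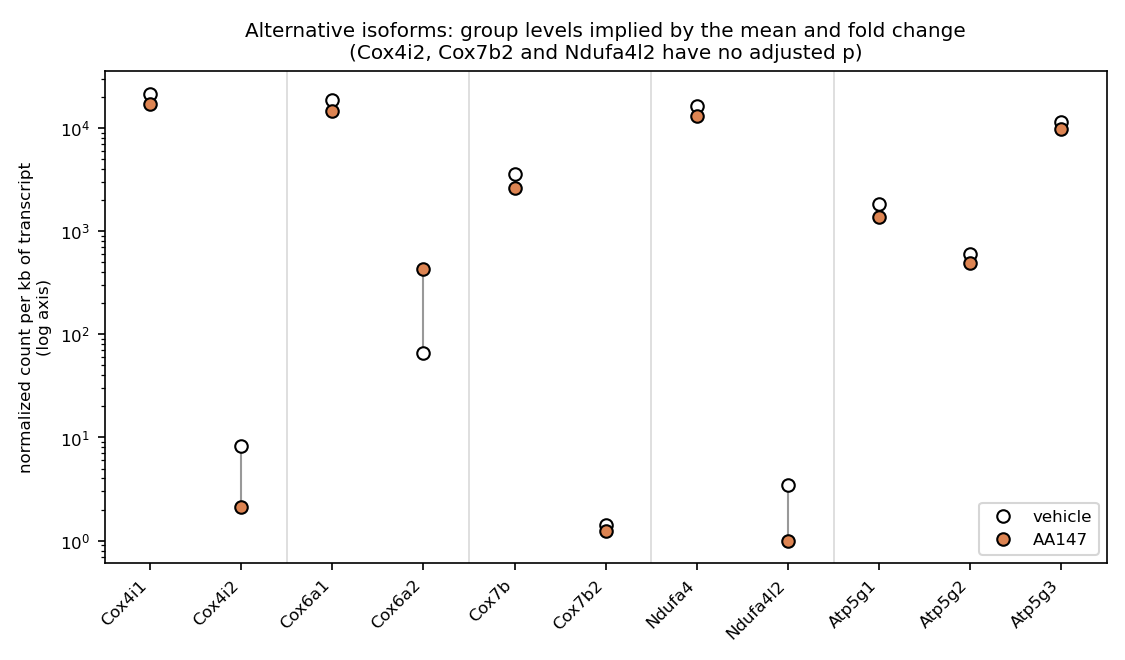
Normalized counts per kb of transcript (log axis) implied for vehicle (open) and AA147 (filled) by the mean and fold change in the authors' deposited table, for alternative isoforms set side by side; no error is drawn. Cox6a2 rises from 66.5 to 428 and stays far below Cox6a1, which falls from 18869 to 14578, and the 3 forms under 10 have no adjusted p.

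Complex I, the largest assembly, had 10 calls among its accessory subunits and 2 in its nuclear core. Of 29 accessory subunits, the authors' deposited table lists 26 as negative and 10 were called, with a median of -0.21. Of 7 nuclear core subunits 2 were called, with a median of -0.08. The shares called negative were 34.5% of the accessory and 28.6% of the core subunits. Beside these stand 11.1% of all genes and 15.6% of genes with a mean of at least 1000. The difference between these classes was not tested. Ndufb11, a membrane arm subunit encoded on the X chromosome, was lowest at -0.49 (SE 0.077, adjusted p 9.35e-09) as listed by the authors' deposited table, or 0.714-fold. Ndufa13, also known as GRIM-19, was at -0.47 (SE 0.083, adjusted p 3.79e-07) and Ndufa3 at -0.45 (SE 0.089, adjusted p 8.08e-06). Ndufv3 at -0.40, Ndufb2 at -0.36, Ndufa2 at -0.34, Ndufa7 at -0.27, Ndufb8 at -0.25 and Ndufb10 at -0.21 were called too in the authors' deposited table, and the smallest accessory call was Ndufb7 at -0.21 (SE 0.071, adjusted p 0.0196). After the trend was subtracted 10 nuclear subunits of complex I were called in place of 12: Ndufb7, Ndufb8, Ndufb10 and the core subunit Ndufv1 were not, with adjusted p from 0.132 to 0.371, and Ndufs4 and Ndufc1 were.

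The core subunits bind FMN and the iron-sulfur clusters along which electrons travel. Ndufs8, which holds clusters near the membrane, was at -0.37 (SE 0.066, adjusted p 6.75e-07) as listed by the authors' deposited table. Ndufv1, which binds NADH and FMN, was at -0.21 (SE 0.075, adjusted p 0.0279). The others were not called, among them Ndufs3 at -0.09, Ndufs7 at -0.08, Ndufv2 at -0.04 and Ndufs1 at 0.05 in the authors' deposited table. The interval of Ndufs1 ran from -0.07 to 0.18, so a decrease of the size of that of Ndufb7 lay outside it. After the trend was subtracted Ndufs7 turned positive. The remaining accessory subunits ranged from -0.31 for Ndufa1 to 0.27 for Ndufs5, whose mean was only 32.6. Ndufb5, just outside the threshold at an adjusted p of 0.0501, was at -0.23 in the authors' deposited table, where COX3 just inside it was at -0.17 with an adjusted p of 0.0438.

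In complex II the membrane anchors were called and the catalytic head was not. Sdhc was at -0.31 (SE 0.078, adjusted p 0.000771) and Sdhd at -0.22 (SE 0.073, adjusted p 0.0146) as listed by the authors' deposited table. Sdha, the flavoprotein, was at -0.13 (interval -0.25 to -0.01, adjusted p 0.113), and Sdhb, the iron-sulfur subunit, at -0.04 (interval -0.16 to 0.09, adjusted p 0.767). The difference between the anchors and the head was not tested.

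In complex III 22.2% of the nuclear subunits were called, all negative. Over all genes 20.2% were called, 11.1% negative, and 15.6% were called negative where the mean was at least 1000. All 9 nuclear subunits were negative as the authors' deposited table lists them, with a median of -0.13, and 2 were called, the small accessory subunits Uqcr11 at -0.45 (SE 0.10, adjusted p 0.00021) and Uqcrh, the hinge protein, at -0.30 (SE 0.088, adjusted p 0.0053). The redox subunits Uqcrfs1, the Rieske protein, at -0.07 (SE 0.067) and Cyc1, cytochrome c1, at -0.11 (SE 0.066) were not called. The large core proteins Uqcrc1 at -0.10 (SE 0.060) and Uqcrc2 at -0.01 (SE 0.057) were not called either in the authors' deposited table. Uqcr10, Uqcrq and Uqcrb lay between -0.17 and -0.13. With a trend on length, GC content and mean subtracted, the median of all 10 subunits of this complex, CYTB included, moved from -0.14 to -0.07. The carrier Cycs, cytochrome c, pointed the other way at 0.33 (SE 0.13) but was not called (adjusted p 0.0652), and its 11 near-identical genomic copies make the value uncertain.

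**Figure D3:**
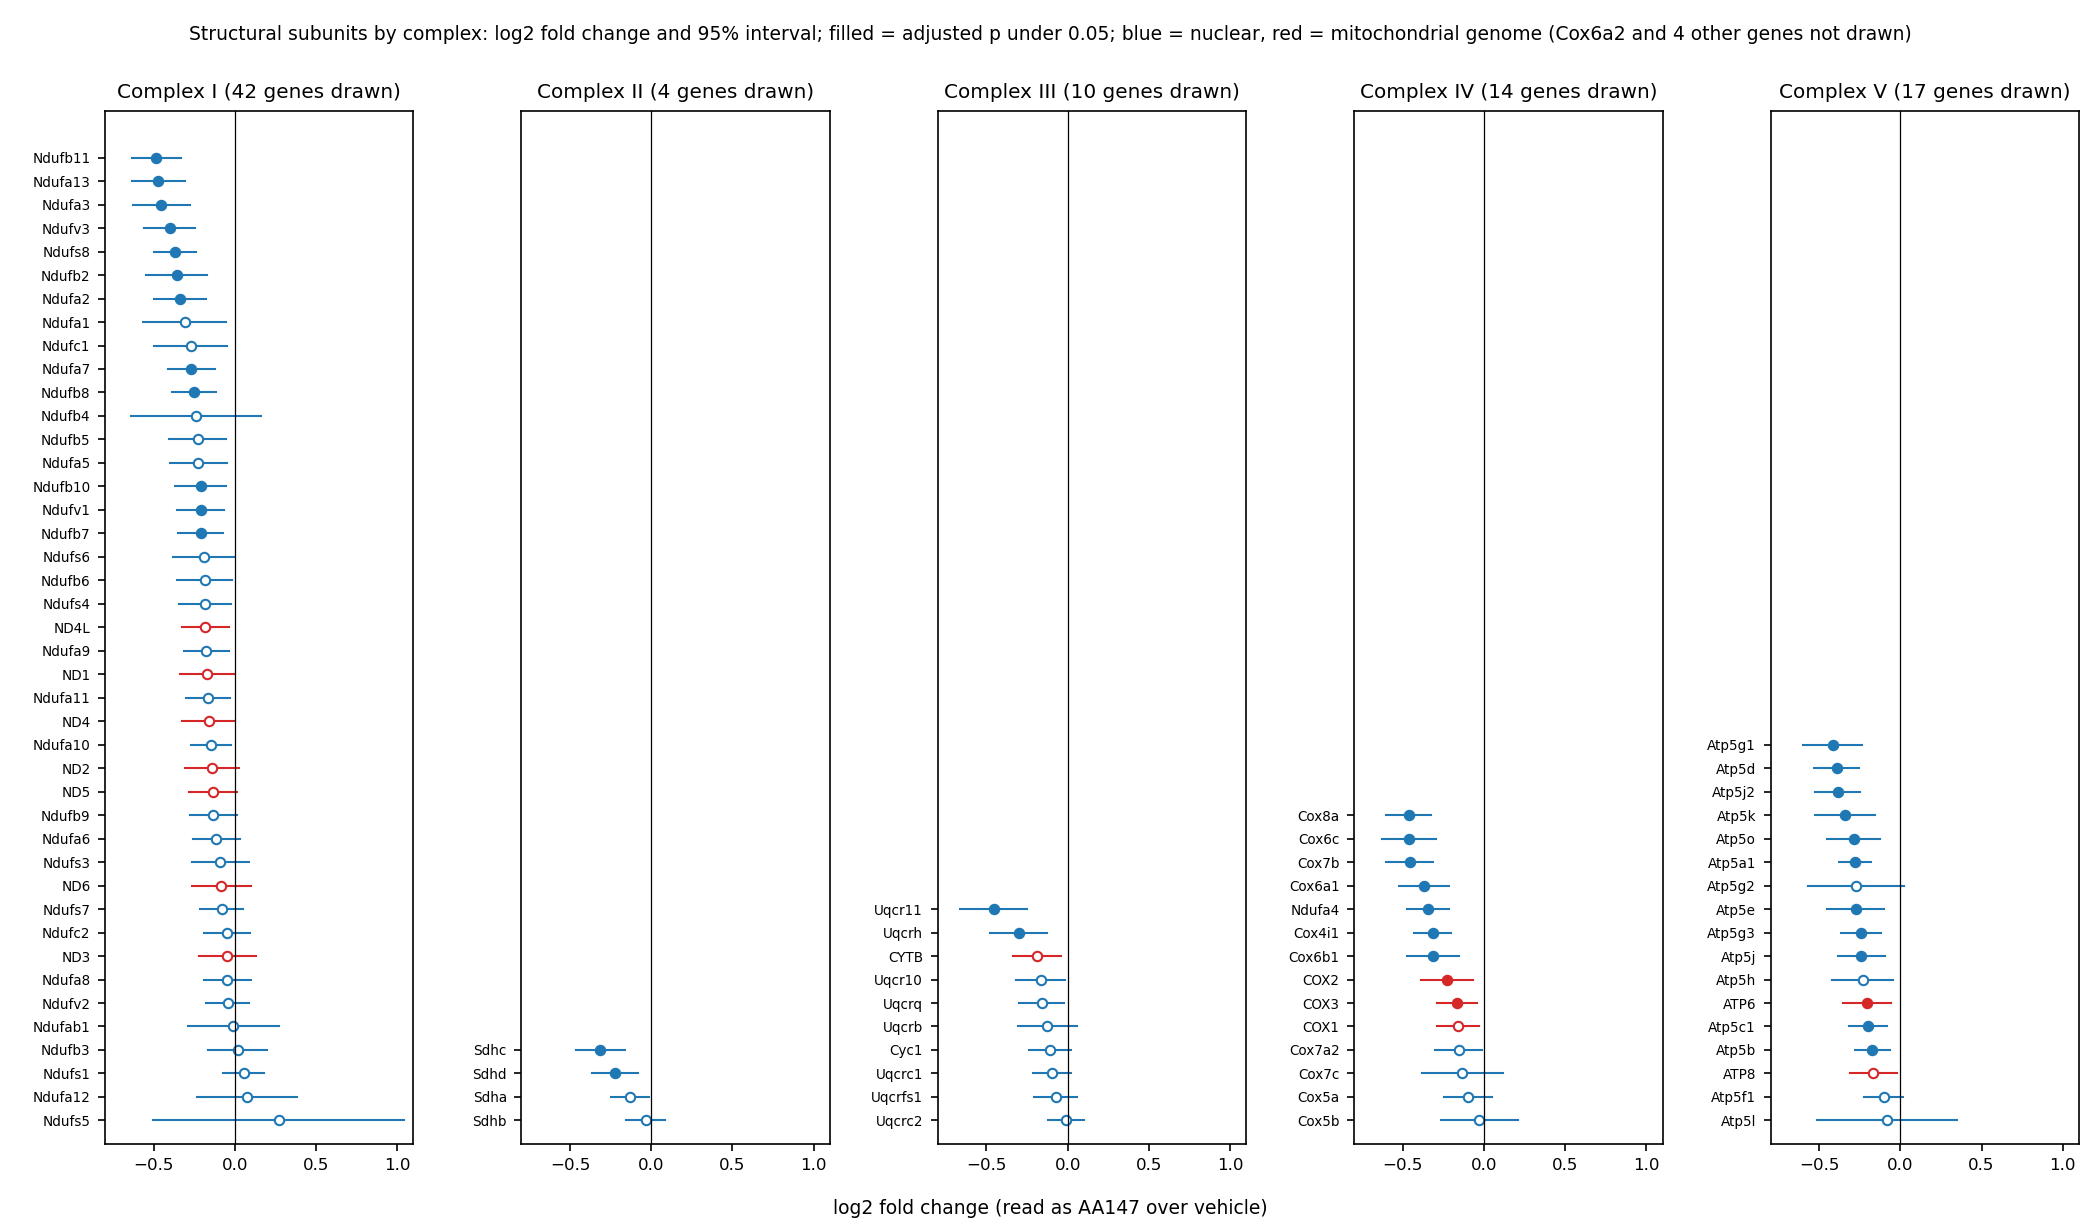
Log2 fold change with its 95% interval for the structural subunits of complexes I to V in the authors' deposited table, nuclear genes in blue, mitochondrial-genome genes in red, filled where the adjusted p is under 0.05. Cox6a2, beyond the axis, 3 genes without an adjusted p and a gene that is not reported are not drawn. Most points lie left of 0, the filled points of complexes IV and V lie between -0.46 and -0.17, and the mitochondrial genes lie from -0.23 to -0.05 as deposited, with COX1 above 0 after the trend was subtracted.

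The authors' deposited table lists all 13 mitochondrial-genome genes as slightly negative, and after the trend was subtracted 12 were negative and COX1 positive. They ranged from -0.23 to -0.05 with a median of -0.17, and 3 were called negative: the complex IV subunit COX2 at -0.23 (SE 0.081, adjusted p 0.0281), COX3 of the same complex at -0.17 (SE 0.064, adjusted p 0.0438), and ATP6, the proton channel of the ATP synthase, at -0.21 (SE 0.075, adjusted p 0.0326). COX1, the catalytic subunit of complex IV and the gene with the highest mean of the whole table, 498235, was at -0.16 (SE 0.066, adjusted p 0.0652). CYTB of complex III was at -0.19 (SE 0.074, adjusted p 0.0556) and ATP8 at -0.17 (SE 0.074, adjusted p 0.0929) as listed by the authors' deposited table. The 7 complex I genes gave no call: ND4L was at -0.18, ND1 at -0.17, ND4 at -0.16, ND2 at -0.14, ND5 at -0.13, ND6 at -0.08 and ND3 at -0.05. ND6 is the only one of these encoded on the opposite strand, and its SE of 0.093 was 1.59-fold that of the median gene of like abundance, the highest ratio among 99 members. Without strand, its reads and those of the other strand cannot be separated, and the overlapping pairs ATP8 and ATP6, and ND4L and ND4, share reads as well.

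The calls of the mitochondrial genome changed with the threshold and the scaling. At an adjusted p under 0.01, where 13.4% of all genes were called, 0 of the 13 were. With fold changes centred on abundant genes, a shift of 0.01, 6 were called beside 19.9% of all genes. With the trend subtracted, 0 were called beside 23.2% of the 10191 genes in that fit, and the median moved to -0.06. Their means, from 13682 to 498235, lie at the upper end of the range over which that trend was fitted. At an unadjusted p under 0.05 as deposited 7 of the 13 passed, or 53.8%, beside 40.4% of genes with a mean of at least 1000 and 26.1% of all genes.

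Both genomes leaned the same way. The 79 nuclear structural subunits had a median log2 fold change of -0.21 in the authors' deposited table, with 34 called negative and 1 positive of 76 with an adjusted p, and 74 were negative, or 71 after the trend was subtracted. The mitochondrial genes had a median of -0.17 and 3 negative calls of 13, a share of 23.1% beside 15.6% of genes with a mean of at least 1000. The median SE was 0.077 for the nuclear subunits and 0.076 for the mitochondrial genes. The lowest mitochondrial value, -0.23 for COX2, was above that of 34 of the 76 nuclear subunits with an adjusted p. Summed over genes, the implied counts of the nuclear subunits were 1.29% of all counts with vehicle and 1.15% with AA147, and those of the mitochondrial genes 6.21% and 5.73%. Whether the genomes differ was not tested, since genes are not replicates and share the same libraries.

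**Figure D4:**
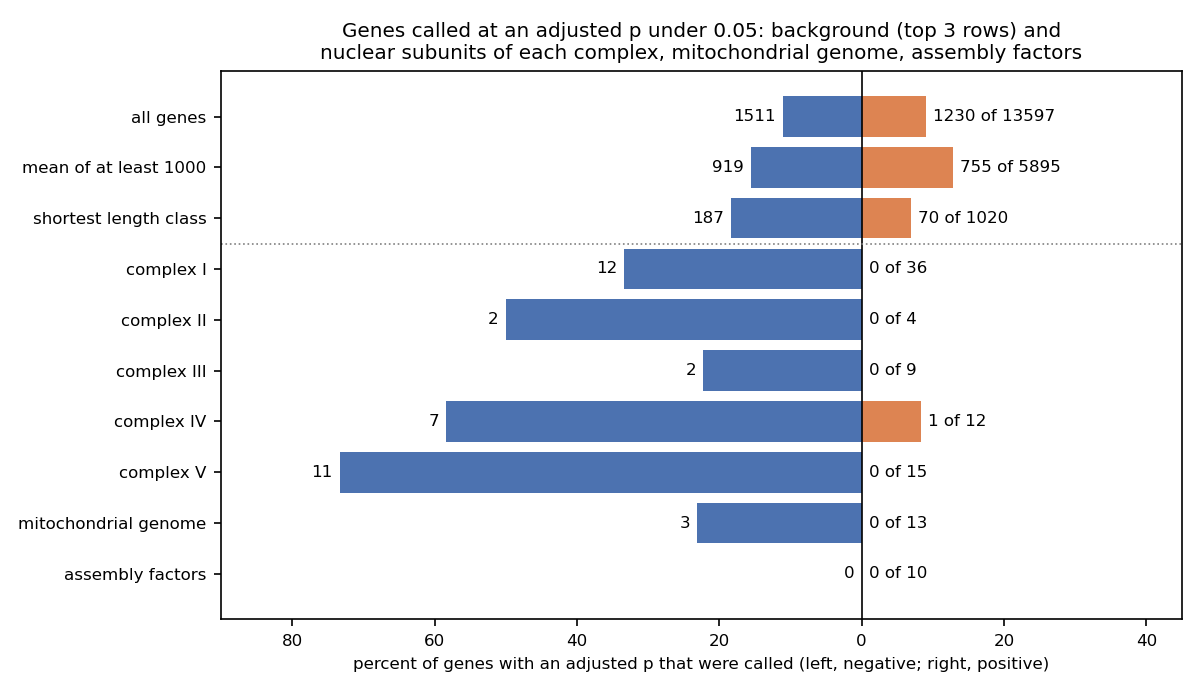
Percent of genes with an adjusted p that were called negative (left) or positive (right) as listed by the authors' deposited table, for 3 background sets and for the nuclear subunits of each complex, the mitochondrial genome and the assembly factors; the numbers are the genes called. Complexes IV and V reach 58.3% and 73.3% negative. The backgrounds reach 11.1% for all genes, 15.6% for a mean of at least 1000 and 18.3% for the shortest length class. None of the 10 assembly factors with these symbols was called, and their median SE was 0.12 beside 0.077 for the nuclear structural subunits.

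Transcript length moved with the fold changes, and its part in them was not tested beyond the values given here. Oxidative phosphorylation transcripts are short, with a median of 1014 bases for the nuclear subunits against 3047 for all genes with a known length. In the shortest of 10 length classes the median log2 fold change of all genes was -0.06, and 18.3% were called negative. Among the 43 nuclear subunits of that class the median was -0.24 and 48.8% were called negative. Within their own length class, 67 of the 75 nuclear subunits with a mean of at least 100 lay below the median of all genes. Across those 75 subunits fold change and length had a Spearman correlation of 0.26, and fold change and GC content one of -0.27, genes of the same libraries and not independent. With a robust trend on length, GC content and mean subtracted, 27 members were called negative and Cox6a2 positive, beside 13.1% of genes called negative, and 26 of these 28 were among the calls as deposited. Complex IV moved from a median of -0.27 to -0.15 with 4 tissue-restricted forms counted, complex V from -0.24 to -0.17 and complex I from -0.18 to -0.12, both genomes included. With only members of a mean of at least 100, the complex IV median as deposited was -0.23. All 8 nuclear calls of complex IV, Cox6a2 among them, were kept after the trend was subtracted.

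**Figure D5:**
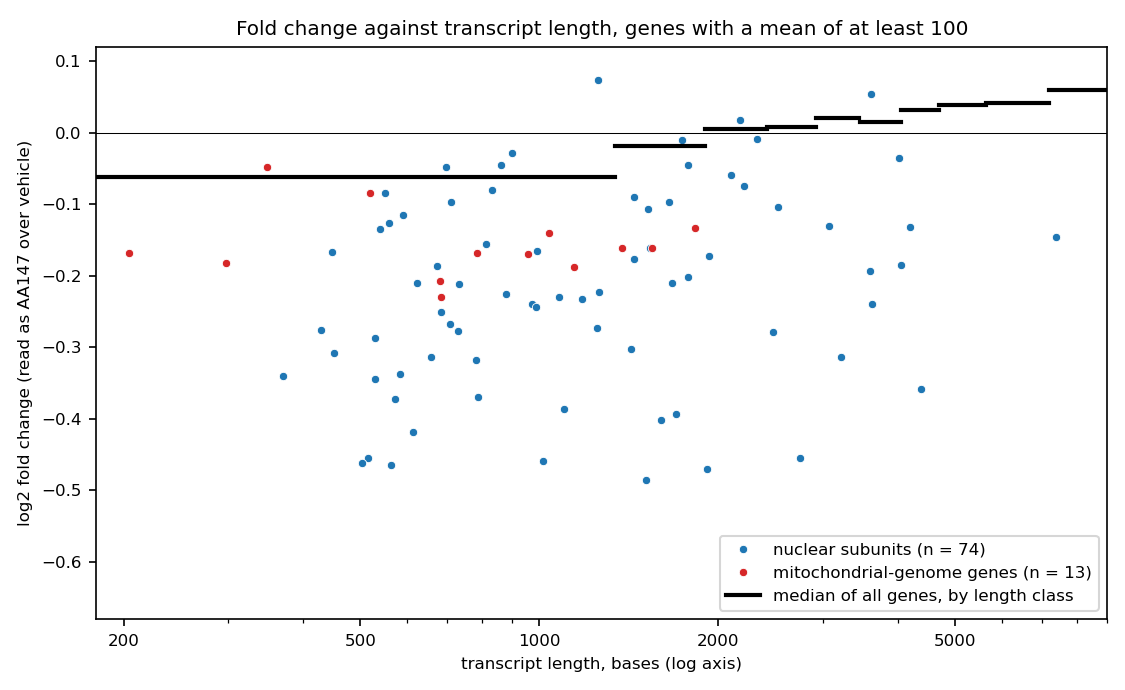
Log2 fold change in the authors' deposited table against transcript length (log axis) for structural subunits with a mean of at least 100, nuclear in blue and mitochondrial in red, with the median of all genes in each of 10 length classes as black lines (Cox6a2 is beyond the axis). The black lines run from -0.06 to 0.06, and most subunits lie below the line at their own length.

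None of the 10 assembly factors caught by the same symbols was called in the authors' test, beside 20.2% of all genes. Their median mean was 452 and their median SE 0.12, against 2893 and 0.077 for the nuclear structural subunits. A change of the size seen in the subunits was therefore harder to call in them. Of the 7 Ndufaf factors, which build complex I and are not part of it, 6 had positive fold changes in the authors' deposited table, or 5 after the trend was subtracted, and none was called, with 1 at an unadjusted p under 0.05. Ndufaf1 was highest at 0.28 (SE 0.13, adjusted p 0.108), and Ndufaf2 lowest at -0.06. Their median was 0.12, or 0.08 after the trend was subtracted, beside 0.01 for all genes. Cox7a2l, which joins complexes III and IV into supercomplexes, was at 0.01 (SE 0.13). Atp5sl, a complex I factor now named Dmac2, was at 0.05 (SE 0.15), and Atp5s, now Dmac2l, at -0.40 (SE 0.33) as listed by the authors' deposited table. The pseudogene Atp5c1-ps was at -0.23 (SE 0.12), close to its parent Atp5c1 at -0.20, with which it may share reads.

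Assembly factors under other names were mixed. Of 48 listed, 1 is a member and 45 others had a value, with a median log2 fold change of -0.04 in the authors' deposited table, 4 called negative and 2 positive, a share of 13.3% beside 20.2% of all genes. Coa7, which helps build complex IV, was highest at 0.61 (SE 0.098, adjusted p 1.66e-08), and Cox17, a copper chaperone for the same complex, was the other positive call at 0.40 (SE 0.14, adjusted p 0.0271). Pet100 was lowest at -0.49 (SE 0.16, adjusted p 0.011), and Cox14 at -0.33 also serves complex IV. After the trend was subtracted 1 was called positive and 5 negative, and Cox17 was not called (adjusted p 0.0532). The other negative calls in the authors' deposited table were Higd2a at -0.33 and Tmem261, a complex I factor now named Dmac1, at -0.29.

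Of 35 genes listed that maintain and express mitochondrial DNA, 8 were called positive and 1 negative by the authors' deposited table, with a median of 0.04, beside 9.05% of all genes called positive. After the trend was subtracted 4 were called positive, beside 10.2% of the genes in that fit, and 1 negative, with a median of 0.03, so the positive share was then near that of all genes. Mterf1a was the highest call at 0.57 (SE 0.21, adjusted p 0.035), and with Fastkd2 it was among those not called after the trend. The RNA-binding FASTK family members Fastkd5 at 0.30 (SE 0.092) and Fastkd2 at 0.29 (SE 0.085), and Grsf1 at 0.21 (SE 0.065), a component of mitochondrial RNA granules, were called too in the authors' deposited table. Hsd17b10, a subunit of mitochondrial RNase P, was the negative call at -0.32 (SE 0.076, adjusted p 0.000284). Of the factors that start and extend transcription, the following were not called: the polymerase Polrmt at 0.00 (interval -0.13 to 0.13), Tfam, which packages the DNA, at -0.12 (interval -0.29 to 0.06), the initiation factor Tfb2m at -0.32 (interval -0.71 to 0.06), and the elongation factor Tefm at 0.32 (interval 0.06 to 0.58, adjusted p 0.0739). Lrpprc, which stabilises the messengers, was at 0.03 (interval -0.08 to 0.14). The transcripts of the list were long, with a median of 3432 bases.

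Of nuclear regulators of the pathway, 15 were listed, 11 had a value in the authors' deposited table and 1 was called, Pprc1, a coactivator of the PGC-1 family, at -0.17 (SE 0.063, adjusted p 0.0326). That call is 9.09% of the list, below the 20.2% of all genes called. After the trend was subtracted 0 were called, beside 23.2% of the genes in that fit. Nrf1 was at -0.01 (interval -0.17 to 0.15), Gabpa at -0.00 (interval -0.13 to 0.12) and Esrra at 0.03 (interval -0.14 to 0.20). Ppargc1b had a wider interval, from -0.61 to 0.09, and Ppargc1a was not analysed here. Of 14 genes for coenzyme Q synthesis and heme attachment, 1 was called positive, Coq7, a hydroxylase, at 0.30 (SE 0.10, adjusted p 0.0198), and 2 negative, Coq6 at -0.23 and Coq10a, which binds coenzyme Q, at -0.47 (SE 0.16, adjusted p 0.0227), all by the authors' deposited table. The 3 calls are 21.4% of the list, beside 20.2% of all genes, and after the trend was subtracted Coq6 was not called. Of 4 subunits and regulators under symbols outside the rule 0 were called, also at an unadjusted p under 0.05, with a median of -0.12, and the ATP synthase inhibitor Atpif1 was at -0.15 (SE 0.082, adjusted p 0.19).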

How the data were processed

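RNA sequencing of 3 AA147 and 3 vehicle libraries from HT22 cells was summarised by the authors in 1 table. DESeq2 and the build mm9 are named, with no role, per the submitters' processing notes. The aligner, counter and annotation are not given in the sources used here. The deposited mean is a signal, counts divided by size factors and averaged over all libraries. The deposited log2 fold change and its SE come from the authors' model. The deposited score is that fold change divided by its SE. The deposited p-value is adjusted by the Benjamini-Hochberg method, and 2875 genes, with means up to 8.41, have no adjusted p. With no counts per library, nothing was refitted, and 0 columns of single samples were left unused.

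Members were matched by symbol, and the members and gene lists were chosen with earlier results of these data known. A call is a deposited adjusted p under 0.05. Group levels were implied from the mean and fold change. Lengths and GC content came from canonical transcripts of a GRCm39 annotation, known for 86.8% of genes and all 104 members. A robust trend on length, GC content and mean was fitted over 10191 genes. Coding copies were counted in GRCm39 with BLAST 2.17.0 at 90% identity over 80% of the coding sequence. Genes given with full values were the mitochondrial genes and the highest and lowest called member of each complex. To these were added the 5 smallest adjusted p, the 3 most abundant nuclear members, the cytochromes c, and named catalytic or core subunits and isoforms. The highest and lowest call of each outside list completed them. Other genes are named to account for their group. A member that the counts include is not reported here by name. The calling step was tested on simulated statistics for 13597 genes: 73.3% of genes with a mean of at least 100 and a log2 change of 0.5, and 97.5% of those with a change of 1, were called. Of the called genes 7.48% were unchanged. Only 200 genes were changed in the simulation, a smaller share than the 20.2% of genes called as deposited. Its noise was drawn with the deposited SEs, so it tested the calling step and not those SEs. Every negative call among the members was smaller than 0.5 in size, and such changes were not simulated. Alternatives were a stricter threshold, recomputed adjustment, a minimum mean, centring, the trend, means over members, and assembly factors included. Python 3.11.15, pandas 2.3.3, SciPy 1.17.1, statsmodels 0.14.6 and matplotlib 3.10.9 were used.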

Additional observations from a re-analysis of the deposited data

How the results depend on the processing

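The number of members called negative ranged from 27 to 44 over the alternatives, beside 37 as deposited, Cox6a2 was the only positive call in each, and the nuclear structural subunits gave 28 to 39 calls beside 35. No median changed sign. The 3 calls of the mitochondrial genome were 0 at an adjusted p under 0.01, 6 after centring and 0 after the trend on length, GC content and mean was subtracted. Under that trend the median log2 fold change moved to -0.069 for complex III, -0.15 for complex IV and -0.058 for the mitochondrial genes; the cause was not tested. No paired analysis was possible because the table has no values per library. For the same reason the replicate block, leaving out each replicate, other scalings and a filter on counts were not run, and depth per library is unknown.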

Other observations

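Near-identical coding copies elsewhere in the genome can take or lend reads. Of the 79 nuclear structural subunits, 25 had at least 1 such copy, with a median mean of 1148 normalized counts, and 9 of them were called. The 54 without a copy had a median mean of 3329, and 26 of the 51 with an adjusted p were called. These shares are 36% and 51%, beside 20.2% of all genes and 28.4% of genes with a mean of at least 1000. The difference between subunits with and without copies was not tested. The median log2 fold change was -0.19 with copies and -0.21 without, from the authors' deposited table. Cox7c had 6 copies and Uqcrb 5, and neither was called, while Cox7b and Atp5g1 had 4 each and both were lower.

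A further 15 members had an adjusted p from 0.05 to 0.1, of which 14 were negative and 4 lay on mitochondrial DNA. Among them the positive value was that of Cycs.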
